A study of Homo sapiens with 15 samples.

Results

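Linker histone genes encode the H1 proteins, which bind DNA where it enters and leaves the nucleosome. The genes described here are 8 rows of the expression table, chosen by symbol from 23368 genes: HIST1H1A, HIST1H1B, HIST1H1C, HIST1H1D, HIST1H1E, HIST1H1T, H1F0 and H1FX. All 8 were found, and 6 of them entered the tests, since HIST1H1B and HIST1H1D had too few libraries above the lowest value. The labels give U2OS, an osteosarcoma cell line with functional p53, for all 15 libraries. Nutlin, which blocks MDM2 and so releases p53, was given at 10 µM, a unit whose prefix is missing in the labels and was read as micro, and DMSO was its vehicle. Both were applied in 3 states, giving 3 Nutlin and 3 DMSO libraries of asynchronous cells, 2 and 2 of non-released cells, and 2 and 3 of S-phase cells. Non-released cells were held in a double block with 2 mM thymidine, of 16 h each with a gap of 8 h, and S-phase cells were harvested 4 h after that block was lifted. In non-released and S-phase cells the compound was added 4 h before the time of release and kept until harvest. How long asynchronous cells were exposed is not given in the labels.

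The main somatic linker histones, made by HIST1H1A to HIST1H1E, belong to the replication-dependent histone genes on chromosome 6. Their transcription and mRNA stability are tied to DNA synthesis, and their mRNAs usually end in a conserved stem-loop, bound by SLBP, in place of a poly(A) tail. H1F0 and H1FX are replacement genes outside that cluster, with polyadenylated mRNA that is also made outside S phase, and HIST1H1T is the variant of the male germ line. The labels name the library kit but not how RNA was selected, and how a selection on poly(A) tails would weigh on genes with a stem-loop end was not tested.

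The start regions below show which elements the members share, as 140 bases before the annotated start, taken from RefSeq on GRCh38.p14 and written in the direction of transcription. Capitals mark matches on the gene's own strand to AAACACA, the H1 box of linker histone promoters, to CCAAT and to TATANA, the pattern of the box that positions transcription start.
HIST1H1A, chr6:26017788-26017927, minus strand: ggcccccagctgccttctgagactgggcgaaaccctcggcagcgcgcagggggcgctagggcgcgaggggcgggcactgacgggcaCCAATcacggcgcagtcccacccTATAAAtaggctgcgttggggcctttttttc
HIST1H1B, chr6:27867589-27867728, minus strand: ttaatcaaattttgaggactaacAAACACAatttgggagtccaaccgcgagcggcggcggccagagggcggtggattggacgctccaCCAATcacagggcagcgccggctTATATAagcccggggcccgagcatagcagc
HIST1H1C, chr6:26056471-26056610, minus strand: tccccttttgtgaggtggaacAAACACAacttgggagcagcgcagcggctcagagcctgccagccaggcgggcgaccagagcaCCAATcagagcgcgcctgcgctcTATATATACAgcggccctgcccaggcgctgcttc
HIST1H1E, chr6:26156189-26156328, plus strand: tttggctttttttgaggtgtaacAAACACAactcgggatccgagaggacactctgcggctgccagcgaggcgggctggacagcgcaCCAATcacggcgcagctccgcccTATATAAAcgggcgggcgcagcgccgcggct
H1FX, chr3:129316287-129316426, minus strand: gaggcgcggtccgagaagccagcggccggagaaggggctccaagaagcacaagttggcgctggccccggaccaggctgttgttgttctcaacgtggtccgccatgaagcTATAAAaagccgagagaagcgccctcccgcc
A RefSeq start region was used for 7 members. On the gene strand AAACACA began between 105 and 119 bases before the start in HIST1H1B, HIST1H1C, HIST1H1D, HIST1H1E and HIST1H1T. The printed windows of HIST1H1A and H1FX hold no match on the gene strand, and HIST1H1A has 1 on the other strand, 183 bases before the start. Counted on both strands, AAACACA occurs in 1982 of 35116 promoters of 300 bases, or 5.644%. CCAAT began between 53 and 57 bases before the start in all 6 cluster genes and not in H1FX, against 34.614% of all promoters with a match on either strand. TATANA was found in all 7 windows, against 19.026% of promoters. HIST1H1B carries the same elements as HIST1H1C and HIST1H1E, and its transcripts were nearly undetected in these cells.

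The annotated transcripts that reach past the coding sequence differ at the end between cluster and replacement genes. Bases near the end of the GENCODE v29 transcripts are given for the 4 members whose models extend past the coding sequence. Capitals mark the start of the stem-loop and what follows it in HIST1H1E and HIST1H1T, and the poly(A) signal AATAAA in H1F0 and H1FX.
HIST1H1E: acaacccaaaGGCTCTTTTCAGA
HIST1H1T: agaacccaaaGGCTCTTTTAAGAG
H1F0: aactttaaAATAAAttggaaaagggaga
H1FX: ttgggcacAATAAAgcgtttaaaccttt
No stretch of 50 bases, the read length, from a member's transcript occurred in the transcript of another gene, so reads of this length could be assigned among the members. H1FX alone overlaps a gene on the opposite strand, H1FX-AS1. That antisense gene held between 11.4 and 26.9 normalised reads per library, against 1061.1 to 3377.0 for H1FX. The labels do not say whether reads were counted by strand, so reads of the pair cannot be told apart.

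Libraries held between 6.05 and 23.38 M reads, with a median of 15.93. Levels are variance-stabilised values on a log2 scale that is compressed at low reads, and a gene with 0 reads stands at 4.86. Each difference has the same scale and is followed by its standard error (SE). A call is an adjusted p under 0.05 from limma, moderated over all 14298 genes tested and adjusted by Benjamini and Hochberg over them. The labels give no culture of origin for replicates, so the p-values reflect variation among these libraries, which may be technical. A pair of libraries stood apart. In the library labelled DMSO asynchronous replicate 3, 17 of 18 epithelial markers and 9 of 10 luminal breast markers were at their highest, and the p53 targets CDKN1A at 14.10 and MDM2 at 14.77 lay above the highest Nutlin asynchronous values, 13.59 and 14.71. The other, labelled DMSO S-phase replicate 2, had the fewest reads. Results that rest on them are given with and without them. With all libraries neither CDKN1A nor MDM2 was called with Nutlin in any state, at differences of 1.22 to 2.00 and a limma adjusted p of 0.053 to 0.597. Without DMSO asynchronous replicate 3 both were called in all 3 states, with an adjusted p of at most 0.00013. A missed call with Nutlin is to be read against that. Of the 13 bone and mesenchymal markers, 10 were tested and detected in every library, among them VIM, SPARC and COL1A1. COL1A1 stood at 9927 normalised reads in DMSO S-phase replicate 2 and at 1747 to 3697 in the other libraries. COL1A2 and ZEB2 had at most 8.68 and 10.6 normalised reads in any library, and TWIST1 had 0 reads throughout. In bulk RNA, fewer cells making a transcript and less transcript per cell cannot be told apart.

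Levels per transcript length put HIST1H1C first. Over RefSeq lengths of 731 bases for HIST1H1C and 787 for HIST1H1E, DMSO S-phase cells held 67369 ± 5726 normalised reads per kb of HIST1H1C and 38688 ± 2793 of HIST1H1E (SD, n = 3). HIST1H1A followed at 9399 ± 2056, H1F0 at 4311 ± 458 and H1FX at 1858 ± 320 reads per kb. HIST1H1T reached 38.5 ± 3.8 there. That order held for S-phase cells, while in the other 4 groups H1F0 lay above HIST1H1A, with 2843 against 1076 mean reads per kb in Nutlin asynchronous cells and 3001 against 2054 in DMSO asynchronous cells. In non-released cells H1F0 and HIST1H1A held 1481 and 720 reads per kb with Nutlin, and 1627 and 1292 with DMSO. H1FX, at 1101 in Nutlin asynchronous and 854 in Nutlin non-released cells, overlapped with HIST1H1A there. HIST1H1C made up between 52.5 and 59.7% of the summed linker histone reads per kb in each library, and HIST1H1E between 29.003 and 32.4%. The replacement genes H1F0 and H1FX together made up 9.79 ± 1.22% in Nutlin non-released cells and 11.6 ± 2.3% in DMSO non-released cells (SD, n = 2 each). In S-phase they made up 4.57 ± 1.48% with Nutlin (n = 2) and 5.12 ± 1.02% with DMSO (n = 3). All linker histone reads together came to between 0.131 and 0.715% of a library, lowest in non-released and highest in S-phase cells.

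**Figure D1:**
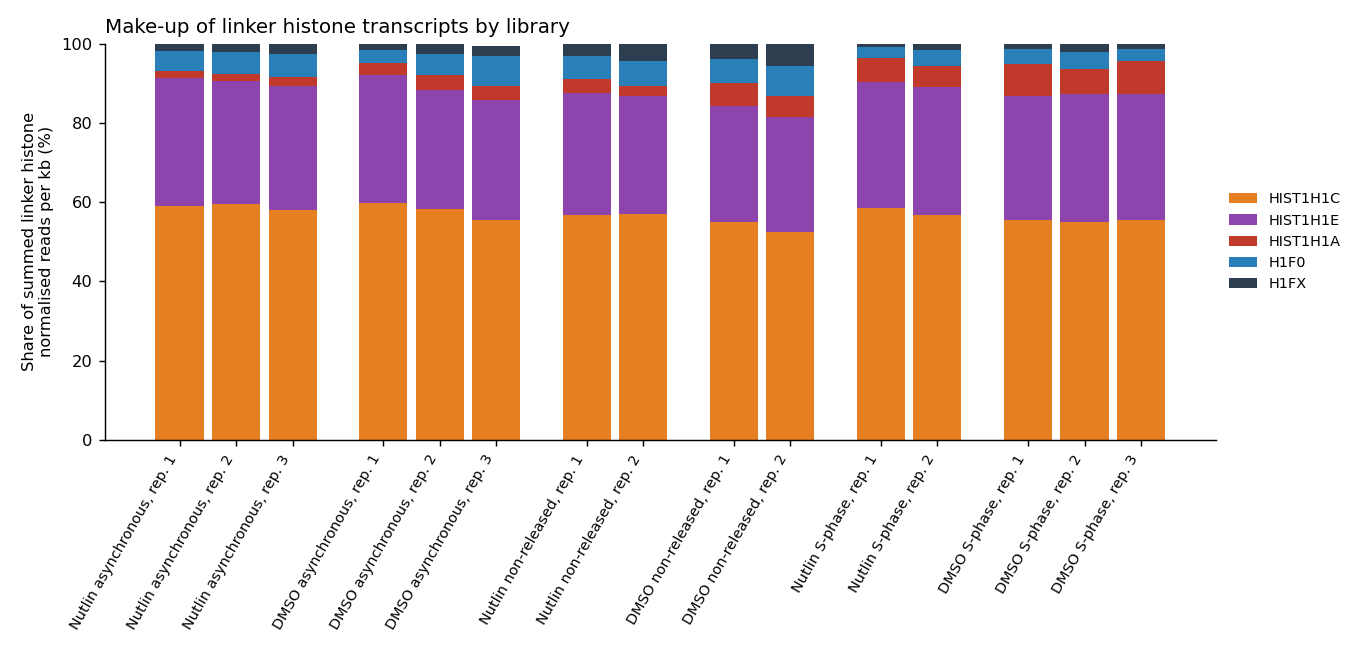
Share of each linker histone gene in the summed normalised reads per kb of the 8 genes (y axis, %), in each of 15 libraries (x axis), with Nutlin bars left of DMSO bars in each state. HIST1H1C takes between 52.5 and 59.7% of every bar, and HIST1H1A is thinnest in the Nutlin asynchronous libraries. HIST1H1B, HIST1H1D and HIST1H1T are not drawn because their share is too small to see.

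HIST1H1B and HIST1H1D, which encode 2 further replication-dependent linker histones, were near the floor of detection in all libraries but 1. HIST1H1B had 73 reads and HIST1H1D 81 in the library labelled DMSO asynchronous replicate 3, and each had 0 or 1 read in each of the other 14 libraries. On the log2 scale that library stood at 6.97 for HIST1H1B and 7.07 for HIST1H1D. That is the library with the epithelial and luminal breast markers, whose part in these reads was not tested. A count of 0 allows up to 3 reads, or between 0.128 and 0.496 reads per M depending on the library, for counting error only. So in the other 14 libraries neither gene was detectable beyond that depth, S-phase cells included. Linker histone genes outside the 8 were also silent or nearly so. The male germ line gene H1FNT and the oocyte gene H1FOO had 0 reads in every library, and the spermatid gene HILS1 had at most 3.03 normalised reads.

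**Figure D2:**
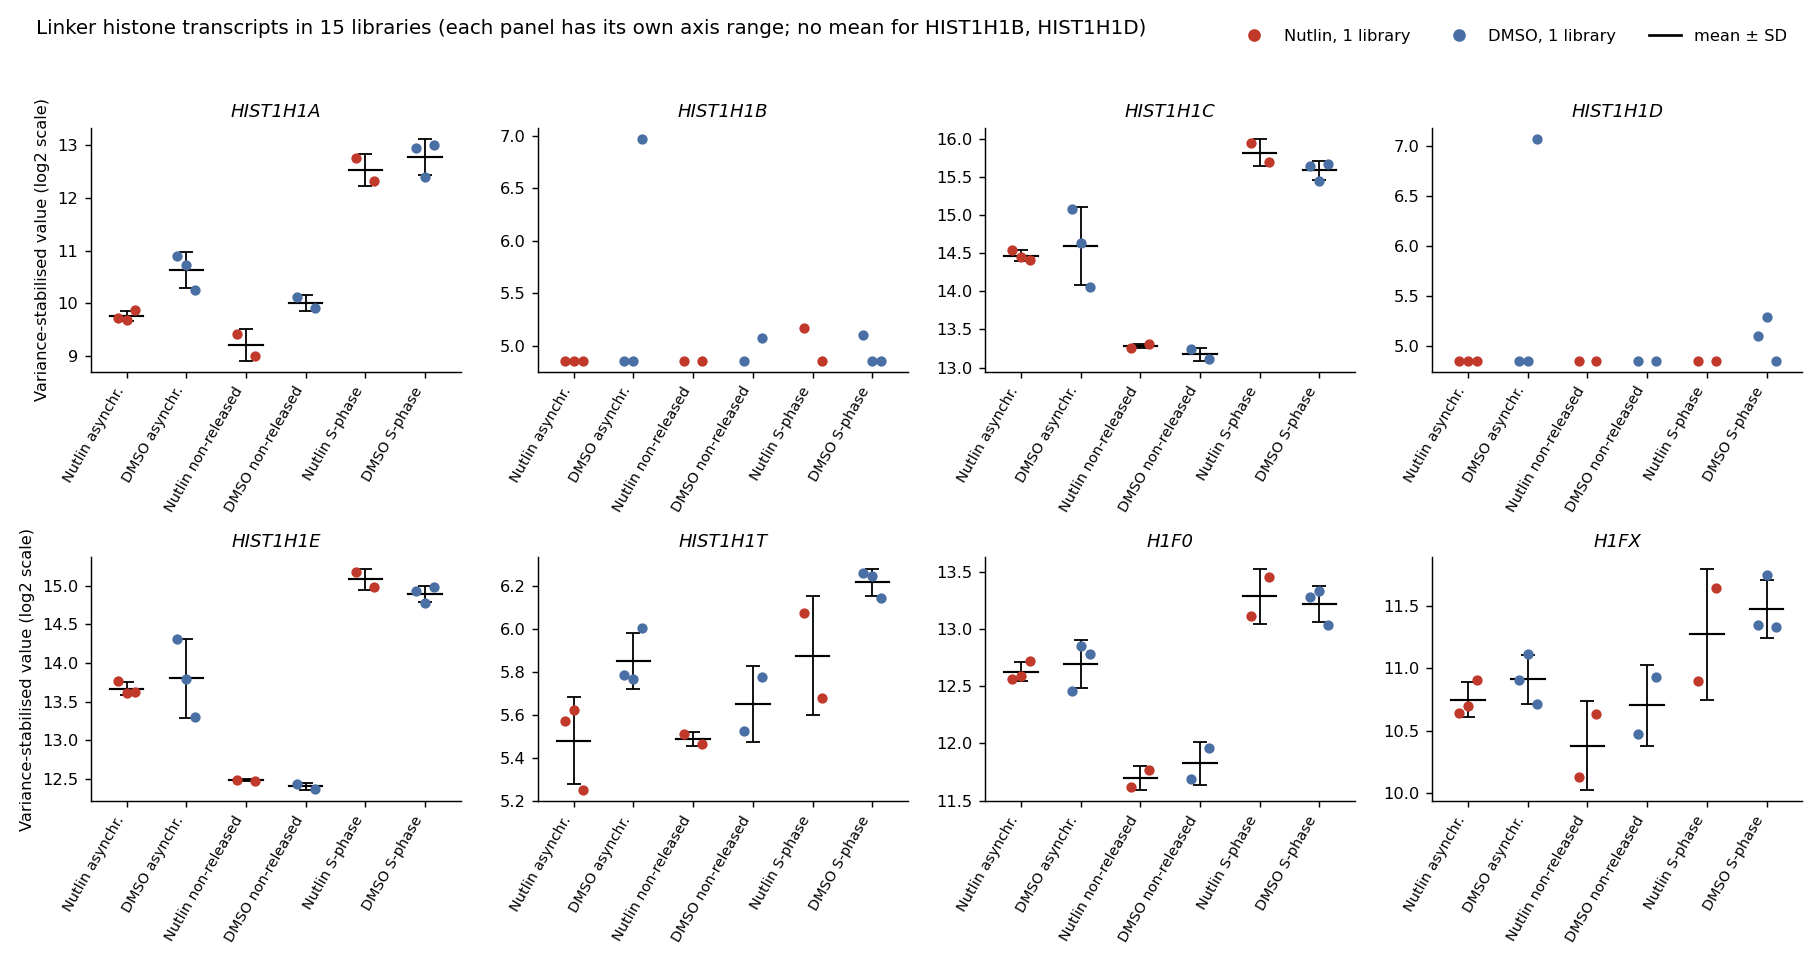
Variance-stabilised value (y axis, log2 scale, its own range in each panel) of the 8 linker histone genes in 6 groups (x axis). Points are libraries, and lines and bars are group means ± SD, not drawn for HIST1H1B and HIST1H1D. HIST1H1A, HIST1H1C, HIST1H1E and H1F0 are highest in S-phase cells, and HIST1H1B and HIST1H1D leave the bottom in 1 DMSO asynchronous library.

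The first question was what Nutlin did within each state. HIST1H1A was called lower in asynchronous cells, and no other member passed the test in any state. HIST1H1A encodes a replication-dependent linker histone that is less widely expressed than HIST1H1C and HIST1H1E. It stood at 9.73, 9.69 and 9.87 in Nutlin asynchronous libraries and at 10.91, 10.73 and 10.25 in DMSO asynchronous libraries. The groups did not overlap, as for 18.1% of all genes tested in this comparison, and the lowest DMSO value was that of replicate 3. The difference was -0.86 ± 0.19 (SE, n = 3 and 3, limma adjusted p = 0.029), with normalised reads 1.91 times higher in DMSO cells. Thus 1 of 6 members was called lower, where 0.546% of all genes were called lower and 2.45% in either direction. Without DMSO asynchronous replicate 3 the difference was -1.05 ± 0.18 (adjusted p = 0.0050). The call was lost without any one of the other 5 asynchronous libraries, with an adjusted p of up to 0.129.

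In non-released cells HIST1H1A stood at 9.43 and 9.003 with Nutlin and at 10.11 and 9.90 with DMSO. These groups did not overlap either, which holds for 45.7% of genes there. The difference of -0.79 ± 0.23 (SE, n = 2 and 2, limma adjusted p = 0.205) missed the threshold, and 0 of 6 members were called, where 0.916% of genes were. HIST1H1A was the single member with an unadjusted p under 0.05 there. With both libraries that stand apart left out, its adjusted p was 0.0052, and with a spread from the compared groups alone it was also called, so this call turns on how the spread is estimated. In S-phase cells HIST1H1A stood at 12.75 and 12.32 with Nutlin and at 12.95, 12.39 and 13.003 with DMSO. Here the groups overlapped, the difference was -0.25 ± 0.21 (n = 2 and 3, limma adjusted p = 0.641), and 0 of 6 members were called, where 2% of genes were, and 1.84% were called higher. HIST1H1T was the single member with an unadjusted p under 0.05 in S-phase cells.

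Whether the response of HIST1H1A differed between states was tested directly. The response in S-phase cells minus that in asynchronous cells was 0.62 ± 0.29 (limma adjusted p = 0.836, unadjusted p = 0.050), with a 95% interval of -0.0012 to 1.23. In S-phase minus non-released cells it was 0.55 ± 0.32 (adjusted p = 0.999). Of 18 such tests over 6 members and 3 pairs of states, 0 passed and 0 had an unadjusted p under 0.05, and over all genes 0% were called in each. S-phase cells had the compound for 4 h before release and 4 h after it, and the time in asynchronous cells is not given. State and time with Nutlin therefore cannot be told apart in these tests, nor where states are compared under Nutlin.

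**Figure D3:**
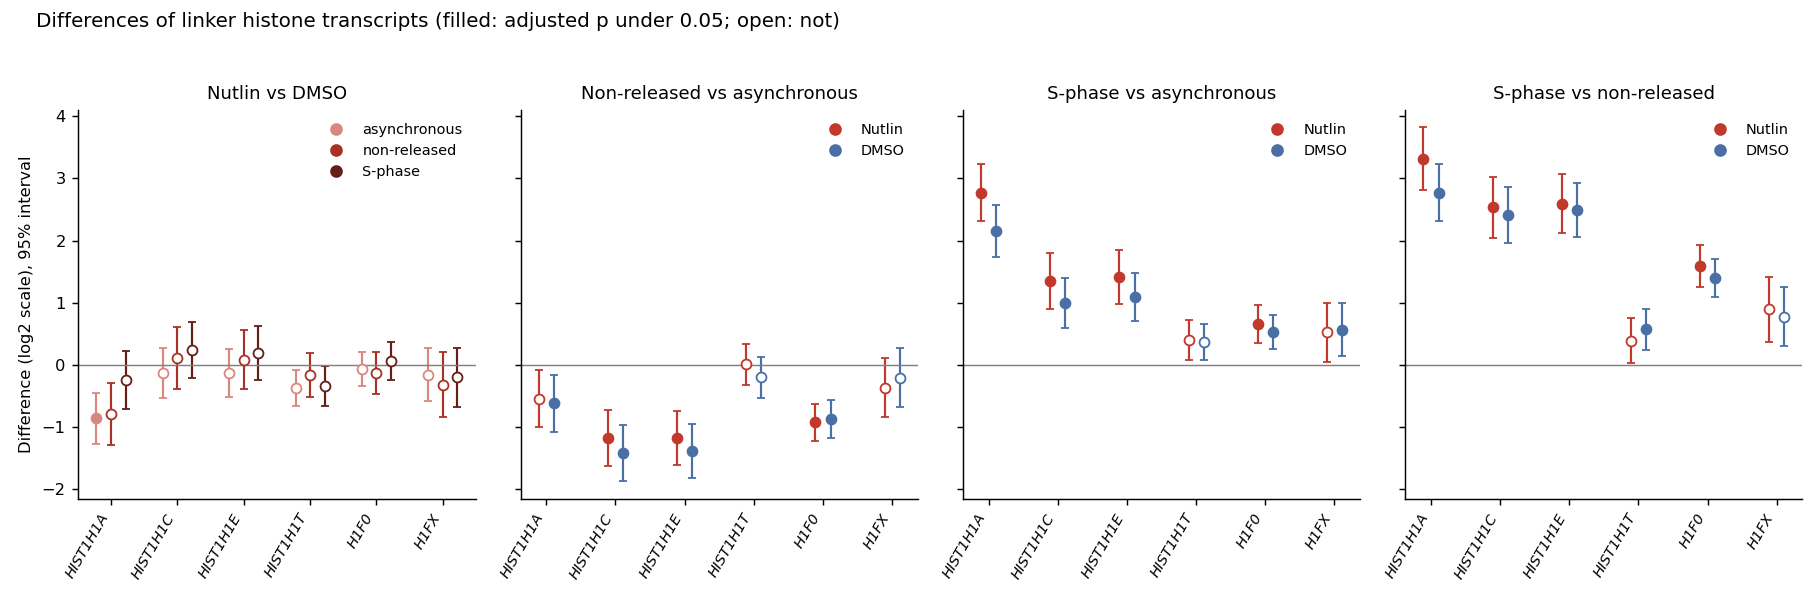
Differences in variance-stabilised value (y axis, log2 scale) of 6 linker histone genes (x axis) in 9 comparisons, with 95% intervals from limma. Filled points passed an adjusted p under 0.05 and open points did not. With Nutlin only HIST1H1A in asynchronous cells is filled (-0.86), while HIST1H1C, HIST1H1E and H1F0 are filled in every comparison of states.

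HIST1H1C and HIST1H1E, the most abundant pair, encode the linker histones found in most dividing human cell types, and neither passed the test with Nutlin in any state. HIST1H1C stood at 14.54, 14.45 and 14.41 in Nutlin asynchronous libraries and at 15.08, 14.64 and 14.06 in DMSO asynchronous libraries. The DMSO values spread on both sides of the Nutlin values, and the difference was -0.13 ± 0.19 (95% interval -0.53 to 0.27). Without DMSO asynchronous replicate 3, the lowest of the 3, it was -0.40 ± 0.13 (adjusted p = 0.152). In S-phase cells HIST1H1C stood at 15.95 and 15.69 with Nutlin and at 15.64, 15.44 and 15.67 with DMSO, a difference of 0.23 ± 0.21 (adjusted p = 0.654). The S-phase groups did not overlap, as for 25.8% of genes. HIST1H1E differed by -0.13 ± 0.18 in asynchronous, 0.08 ± 0.22 in non-released and 0.19 ± 0.20 in S-phase cells. Over 23 alternatives, the asynchronous difference of HIST1H1C ran from -0.40 to 0.12 and that of HIST1H1E from -0.38 to 0.12. Neither was called in any of them, but the lowest limma adjusted p was 0.054 for HIST1H1C and 0.074 for HIST1H1E. The 95% intervals of HIST1H1C reach from -0.39 to 0.60 in non-released and from -0.22 to 0.68 in S-phase cells.

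Within a library, HIST1H1A was lower relative to HIST1H1C with Nutlin than with DMSO in each state. On the log2 scale HIST1H1A minus HIST1H1C was -4.81, -4.76 and -4.53 in Nutlin asynchronous libraries and -4.18, -3.91 and -3.81 in DMSO asynchronous libraries. In non-released cells it was -3.83 and -4.30 with Nutlin and -3.12 and -3.21 with DMSO. In S-phase cells it was -3.19 and -3.37 with Nutlin and -2.69, -3.05 and -2.67 with DMSO. The Nutlin and DMSO libraries did not overlap in any of the 3 states. Single genes did not overlap in 18.1% of cases in asynchronous, 45.7% in non-released and 25.8% in S-phase cells. The share for ratios of other genes was not computed. This ratio was chosen after its values were seen and is given without a test. The ratio of HIST1H1C to HIST1H1E reads, in contrast, lay between 1.59 and 1.80 in all 15 libraries.

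**Figure D4:**
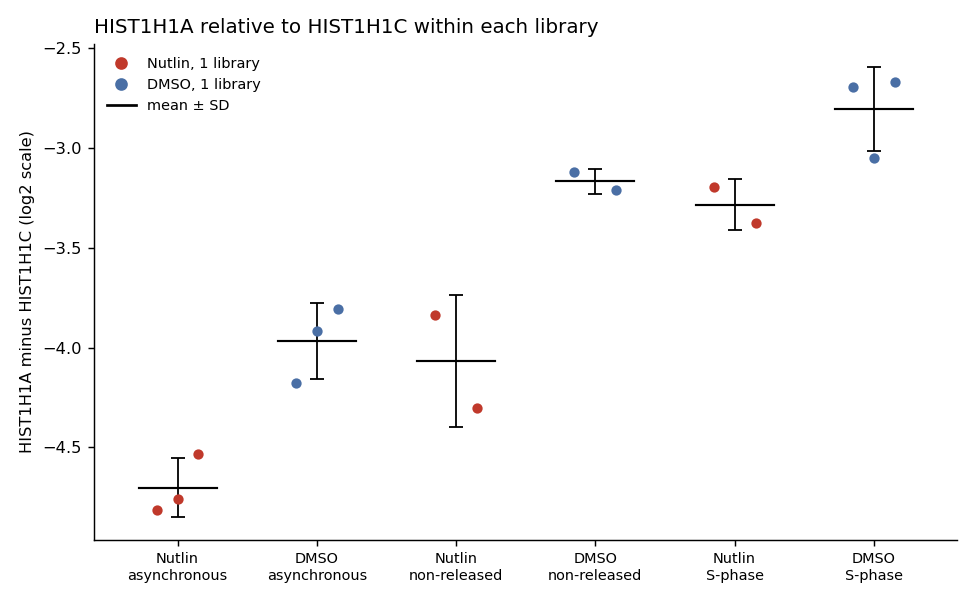
HIST1H1A minus HIST1H1C within each library (y axis, log2 scale) in 6 groups (x axis). Points are libraries, and lines and bars are means ± SD. In each state the Nutlin points lie below the DMSO points, with means of -4.70 and -3.97 in asynchronous cells.

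Among replacement genes, neither H1F0 nor H1FX passed the test with Nutlin. H1F0, which encodes a linker histone that accumulates in resting and differentiated cells, stood at 12.57, 12.59 and 12.72 in Nutlin asynchronous libraries and at 12.46, 12.85 and 12.78 in DMSO asynchronous libraries. The ranges overlapped, and the difference of -0.07 ± 0.13 has a 95% interval of -0.34 to 0.20. Its differences were -0.13 ± 0.16 in non-released and 0.07 ± 0.14 in S-phase cells. H1FX, a replacement linker histone with a divergent sequence, differed by -0.16 ± 0.20, -0.32 ± 0.24 and -0.20 ± 0.22 in cells that were asynchronous, non-released or in S-phase. HIST1H1T was at 10, 6 and 2 reads in Nutlin asynchronous libraries and at 12, 13 and 19 reads in DMSO asynchronous libraries. Its difference of -0.37 ± 0.14 did not pass (limma adjusted p = 0.240, unadjusted p = 0.016). It differed by -0.16 ± 0.17 in non-released and -0.34 ± 0.15 in S-phase cells. With limma's voom on recovered reads, which is not compressed at low values, the values were -1.36 ± 0.47, -0.66 ± 0.57 and -0.91 ± 0.46 in that order. None of these was called. Its Nutlin and DMSO libraries did not overlap in any state. That held for 18.1% of genes in asynchronous, 45.7% in non-released and 25.8% in S-phase cells.

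The second question was how the members change with cell cycle state. In S-phase against non-released cells, 4 of 6 members rose with Nutlin, where 2.43% of genes were called, and 5 of 6 rose with DMSO, where 6.99% were. Upward calls alone made up 1.6% of genes with Nutlin and 4.11% with DMSO, and downward calls 0.832% with Nutlin and 2.89% with DMSO. The median difference of the 6 members was 2.06 with Nutlin and 1.90 with DMSO, against 0.01 and -0.01 over all genes. HIST1H1A gave the largest difference of the members, at 3.32 ± 0.23 with Nutlin (n = 2 and 2, limma adjusted p = 5.1e-06) and 2.77 ± 0.21 with DMSO (n = 3 and 2, adjusted p = 9.7e-06). Its mean normalised reads were 10.9 times higher in S-phase cells with Nutlin and 7.28 times with DMSO. HIST1H1C stood at 15.95 and 15.69 in Nutlin S-phase libraries and at 13.26 and 13.30 in Nutlin non-released libraries, a difference of 2.54 ± 0.23 (adjusted p = 3.0e-05). In DMSO cells it stood at 15.64, 15.44 and 15.67 in S-phase and at 13.24 and 13.12 without release, a difference of 2.41 ± 0.21 (adjusted p = 1.5e-05). The states were far apart in either case, with no overlap. HIST1H1E stood at 15.18 and 14.98 in Nutlin S-phase libraries and at 12.495 and 12.48 in Nutlin non-released libraries. It rose by 2.60 ± 0.22 with Nutlin and 2.49 ± 0.20 with DMSO.

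H1F0, a replacement gene, rose as well. It stood at 13.11 and 13.46 in Nutlin S-phase libraries and at 11.62 and 11.77 in Nutlin non-released libraries, and the difference was 1.59 ± 0.16 (limma adjusted p = 6.8e-05). In DMSO cells it stood at 13.28, 13.33 and 13.04 in S-phase and at 11.69 and 11.96 without release, a difference of 1.39 ± 0.14 (adjusted p = 6.1e-05). H1FX stood at 10.90 and 11.645 in Nutlin S-phase libraries and at 10.13 and 10.63 in Nutlin non-released libraries. In DMSO cells it stood at 11.35, 11.75 and 11.33 in S-phase and at 10.475 and 10.93 without release. It did not pass in either, with 0.89 ± 0.24 in Nutlin (adjusted p = 0.075) and 0.77 ± 0.22 in DMSO cells (adjusted p = 0.052), and its S-phase libraries did not overlap with its non-released libraries in DMSO or in Nutlin cells. Of 23 alternatives, 5 gave a call with Nutlin and 6 with DMSO, some of them named in the closing section. Non-overlap of this kind held for 52.2% of genes with Nutlin and 37.8% with DMSO. HIST1H1T passed in DMSO cells at 0.57 ± 0.15 (adjusted p = 0.038), on 36, 11 and 25 reads in S-phase and 8 and 19 reads in non-released libraries. With limma's voom on recovered reads, which is not compressed at low values, this difference was 1.52 ± 0.43 (adjusted p = 0.042). With both libraries that stand apart left out, the DMSO differences were 2.97 for HIST1H1A, 2.48 for HIST1H1C, 2.55 for HIST1H1E, 1.33 for H1F0 and 0.55 for HIST1H1T, all called. The HIST1H1T call was lost without any one of 8 libraries, named in the closing section.

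Against asynchronous cells, S-phase cells held more of 4 of 6 members with Nutlin, where 24% of genes were called, and of 5 of 6 with DMSO, where 27.7% were. Upward calls made up 13.4% of genes with Nutlin and 14.1% with DMSO. HIST1H1A stood at 12.75 and 12.32 in Nutlin S-phase libraries, against the Nutlin asynchronous values given above, and the difference was 2.77 ± 0.21 (limma adjusted p = 6.6e-06). With DMSO it was 2.15 ± 0.19 (adjusted p = 1.8e-05). HIST1H1C rose by 1.35 ± 0.21 with Nutlin and 0.99 ± 0.19 with DMSO, and HIST1H1E by 1.41 ± 0.20 and 1.09 ± 0.18 in the same order. H1F0 rose by 0.66 ± 0.14 with Nutlin and 0.52 ± 0.13 with DMSO. H1FX differed by 0.52 ± 0.22 with Nutlin (adjusted p = 0.103) and by 0.57 ± 0.20 with DMSO (adjusted p = 0.048). That last call was lost without DMSO asynchronous replicate 3 (adjusted p = 0.117) and in 11 of the other 22 alternatives. Without that library HIST1H1C still rose in DMSO cells, by 0.72 ± 0.13 (adjusted p = 0.0018). With both libraries that stand apart left out, the DMSO differences were 2.16 for HIST1H1A, 0.80 for HIST1H1C, 0.90 for HIST1H1E and 0.51 for H1F0, all called. In Nutlin cells 5 of 6 members, and in DMSO cells all 6, did not overlap between these states, as for 59.4% and 35.5% of genes.

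Non-released cells, held in thymidine, held less of the main members than asynchronous cells. With Nutlin 3 of 6 members fell, where 34.5% of genes were called, and with DMSO 4 of 6 fell, where 33.9% were. Downward calls made up 17.2% of genes with Nutlin and 17% with DMSO. HIST1H1C fell by 1.18 on the log2 scale with Nutlin (SE 0.21, limma adjusted p = 0.00091) and by 1.42 with DMSO (SE 0.21, adjusted p = 0.00025). HIST1H1E fell by 1.19 with Nutlin and 1.39 with DMSO, and H1F0 by 0.93 and 0.87. HIST1H1A differed by -0.55 ± 0.21 with Nutlin (adjusted p = 0.062) and by -0.62 ± 0.21 with DMSO (adjusted p = 0.039). The Nutlin value passed without DMSO asynchronous replicate 3 (adjusted p = 0.030), which enters that comparison only through the shared spread. The DMSO value was lost in 9 of 23 alternatives, among them voom (adjusted p = 0.075). Without that library the DMSO differences were -0.81 for HIST1H1A, -1.69 for HIST1H1C and -0.83 for H1F0, all called. H1FX and HIST1H1T were not called, and in DMSO cells their ranges overlapped between these states. Non-overlap held for 5 of 6 members in Nutlin cells and 4 of 6 in DMSO cells, against 70.8% of genes with Nutlin and 57.6% with DMSO.

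The order of the 6 groups differed among members. HIST1H1A ran from Nutlin non-released at a mean of 9.22 through Nutlin asynchronous at 9.76, DMSO non-released at 10.01, DMSO asynchronous at 10.63 and Nutlin S-phase at 12.53 to DMSO S-phase at 12.78. Its neighbours in that order did not overlap, except the S-phase pair. For HIST1H1C and HIST1H1E the order went by state, with both non-released groups lowest and both S-phase groups highest, and only the asynchronous pair overlapped. H1F0 kept the same order of states, and its Nutlin and DMSO libraries overlapped within each. For H1FX every pair of neighbouring groups overlapped. Non-overlap held for 70.8% of all genes between non-released and asynchronous cells with Nutlin, and for 57.6% with DMSO. It held for 35.5% between S-phase and asynchronous DMSO cells, 45.7% between the non-released groups and 25.8% between the S-phase groups. For neighbours that differ in both state and compound no share was computed.

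Core histone genes give the scale of these changes. Of 67 core histone genes in the table, taken by symbol as the replication-dependent set, 41 were tested, among them the polyadenylated HIST2H2BE. In S-phase against non-released cells 35 of 41 rose with Nutlin and 38 with DMSO, where 1.6% and 4.11% of all genes were called higher. The median differences of the 41 were 2.43 and 2.24, against medians of 0.01 and -0.01 over all genes. HIST1H1C and HIST1H1E lay near those medians, and H1F0 and H1FX below 31 to 38 of the 41. HIST1H1A lay below 2 of the 41 with Nutlin and below 15 with DMSO. In S-phase against asynchronous cells 40 rose with Nutlin and 35 with DMSO, where 13.4% and 14.1% of all genes were called higher. In either, 0 of 41 core genes had a larger difference than HIST1H1A. In non-released against asynchronous cells 26 fell with Nutlin and 30 with DMSO, where 17.2% and 17% of all genes were called lower. The medians of the 41 were -0.91 and -1.06. HIST1H1A, at -0.55 with Nutlin and -0.62 with DMSO, fell less than both medians. With Nutlin against DMSO, 0 of 41 core genes were called in any state. Of all genes 2.45% were called in asynchronous, 0.916% in non-released and 2% in S-phase cells. In asynchronous cells the median of the 41 core genes was -0.28. Without DMSO asynchronous replicate 3, 8 were called lower, where 0.832% of all genes were, and without both libraries that stand apart 16 were, where 2.46% of all genes were. With Nutlin against DMSO and all libraries, HIST1H1A lay below all 41 in asynchronous and in non-released cells, and below 40 in S-phase cells. No test compared a member with the core genes.

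**Figure D5:**
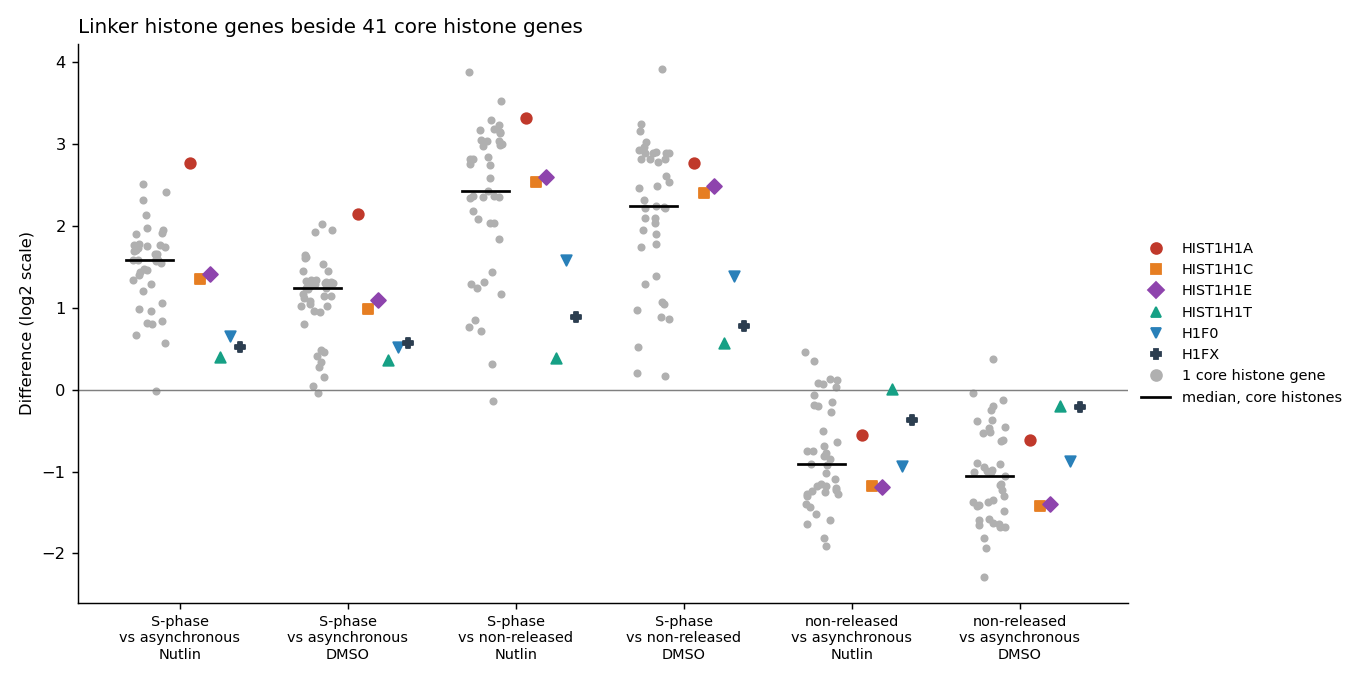
Differences between states (y axis, log2 scale) for 6 linker histone genes (coloured symbols) and 41 core histone genes (grey points, with their median as a line), in 6 comparisons (x axis) with Nutlin left of DMSO. HIST1H1A lies above all core genes in S-phase against asynchronous cells, and HIST1H1C and HIST1H1E lie near the core median in S-phase against non-released cells. There 2 core genes lie above HIST1H1A with Nutlin and 15 with DMSO.

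Over the 15 libraries, the genes most like HIST1H1A, HIST1H1C and HIST1H1E by Pearson r came from the histone clusters. HIST1H1A was most like HIST1H4I (r = 0.988), HIST1H2AK (0.975) and HIST1H2BN (0.972). For HIST1H1C and HIST1H1E these were HIST1H2BJ, HIST1H2AB and HIST1H2AC, with r between 0.996 and 0.998, and r between HIST1H1C and HIST1H1E was 0.999. H1F0 was most like SYNJ2 (0.936), PHF2P1 (0.934) and the polyadenylated core histone gene HIST2H2BE (0.932). H1FX was most like TWIST2 (0.949), CLCF1 (0.946) and OTUD5 (0.940), and HIST1H1T like C3orf80 (0.873), DCUN1D4 (0.845) and MAP3K5 (0.842). These correlations describe libraries that share states and treatment. Without both libraries that stand apart the first gene was the same for HIST1H1A, HIST1H1C and HIST1H1E. It changed to ANKRD20A8P for H1F0, to CLCF1 for H1FX and to HOXB7 for HIST1H1T. None of the genes named above for HIST1H1T then stayed among its first 3.

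Replicate number also moved with the members. H1F0 and H1FX were higher in replicate 2 than in replicate 1 in all 6 groups, as were 6.63% of genes tested. HIST1H1A and HIST1H1E were higher in replicate 1 in all 6, as were 5.78% of genes and 18 of 41 core histone genes, and HIST1H1C was in 5 of 6. The differences reached 0.75 for H1FX and 0.39 for H1F0. What the number marks is not given in the labels, and its part in the results was not tested beyond the block given in the closing section.

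With all libraries, 3 genes that handle linker histones or their mRNA were called with Nutlin. Of 23 genes of histone transcription and mRNA processing, 0 were called in non-released and S-phase cells, where 0.916% and 2% of all genes were. In asynchronous cells 1 of the 23 was called, where 2.45% of all genes were. That gene was SLBP, the stem-loop binding protein, at -0.51 ± 0.12 with Nutlin (limma adjusted p = 0.037), and at -0.59 ± 0.13 without DMSO asynchronous replicate 3 (adjusted p = 0.018). Of 19 tested genes that modify or read linker histones, PADI4, a deiminase that acts on histones and a known p53 target, rose with Nutlin in all 3 states. Its differences were 0.71 ± 0.10, 0.93 ± 0.12 and 1.19 ± 0.11 in the order asynchronous, non-released, S-phase (limma adjusted p = 0.00082, 0.0021 and 6.0e-05). In each state it was the 1 gene of the 19 called higher, where 1.91%, 0.874% and 1.84% of all genes were. PADI4 was low, at 1.84 to 3.104 normalised reads in DMSO asynchronous libraries and 14.955 to 22.23 in Nutlin asynchronous libraries. No library held more than 69.33. The log2 scale is compressed at such reads, so these differences understate the change in reads. CCNE2, a cyclin of the kinase CDK2, fell by 0.56 with Nutlin in asynchronous cells (SE 0.12, adjusted p = 0.024). It was the 1 gene of the 19 called lower there, where 0.546% of all genes were. Of 18 linker histone chaperones and competitors 0 were called with Nutlin in any state. These counts turn on the libraries that stand apart. Without both, in asynchronous cells 3 of the 23 transcription and processing genes were called lower, as were 5 of the 19 modifiers and readers and 2 of the 18 chaperones and competitors, where 2.46% of all genes were. There 2 of the modifiers and readers were called higher, where 3.75% of all genes were. Between states, HMGA2, a protein that competes with H1 for DNA, rose by 0.99 ± 0.16 with Nutlin and 1.35 ± 0.15 with DMSO in S-phase against non-released cells, and HMGA1 rose by 0.37 ± 0.10 with DMSO. In non-released against asynchronous cells 7 of the 18 fell and 1 rose with either compound, where 17.2% of all genes were called lower with Nutlin and 17% with DMSO, and 17.3% and 16.9% higher. Among those that fell were the nucleolar chaperones NCL, by 0.90 with Nutlin and 0.85 with DMSO, and NPM1, by 0.81 and 0.73.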

How the data were processed

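RNA-seq libraries were read as single reads of 50 bases, per the labels' protocols. Upstream, per the submitters' processing notes, the tools were TopHat, HTSeq, DESeq2 1.10.1 and CASAVA 1.8.2, on the build hg19, and the role of each is not stated there. The authors deposited 1 table of variance-stabilised values on a log2 scale, for 23368 genes in 15 libraries. Groups were taken from the library titles. The unit of the Nutlin dose was read as micromolar.

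Reads were recovered here by inverting the transformation, and at least 99.04% of values per library lay within 0.05 of a whole read. In DMSO S-phase replicate 3 nearly all were even multiples of the smallest step, so the larger step was taken as 1 read. Normalised reads are reads divided by the size factor implied by the table.

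Differences were tested on the deposited values by limma 3.58.1 (R 4.3.3), two-sided. The model held a mean for each group, all 15 libraries shared 1 spread per gene, and moderation followed the mean-variance trend with 4.66 prior degrees of freedom. A gene entered if 2 or more libraries exceeded the table's lowest value by 1 unit, which left 14298 genes, 6 of 8 members among them. The 12 comparisons were each adjusted by Benjamini and Hochberg, and scripts were tested on simulated data. The members, motifs and all lists were chosen with earlier results of these data known. Genes outside the members were named as the 3 most correlated with a member, as the called genes of a list with the smallest adjusted p (up to 4), or as label checks. Alternatives were voom on recovered reads, other filters, median centring, the compared groups alone, a replicate block, no trend, both libraries that stand apart left out, and each library left out in turn.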

Additional observations from a re-analysis of the deposited data

How the results depend on the processing

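Over 6 members and 12 comparisons, 1576 values under 23 alternatives kept their direction where called and their side of the threshold, 38 lost a call, 30 gained one and none reversed with a call. The S-phase rises of HIST1H1A and HIST1H1E and the falls of HIST1H1C, HIST1H1E and H1F0 in non-released cells were kept in every alternative run. With the spread taken from the compared groups alone, 1 member was called with Nutlin in non-released cells, 5 in non-released against asynchronous cells with Nutlin, and 2 in S-phase against asynchronous cells with DMSO, where HIST1H1C and H1F0 were then lost. With both libraries that stand apart left out, 1 member was called with Nutlin in non-released cells. Leaving out each library in turn gave 0 to 1 calls with Nutlin in asynchronous cells and 0 with Nutlin in the other states. It gave 3 to 4 in non-released against asynchronous cells with either compound, 4 to 5 in S-phase against asynchronous or non-released cells with Nutlin, and 4 to 6 in both with DMSO. H1F0 lost its call in S-phase against asynchronous cells with Nutlin without Nutlin S-phase replicate 2. HIST1H1T lost its call in S-phase against non-released DMSO cells without Nutlin asynchronous replicate 1, either Nutlin or either DMSO non-released library, or any DMSO S-phase library, and with the compared groups alone. The cause was not tested.

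Same-numbered Nutlin and DMSO libraries deviated together with r = 0.313, 0.136 and 0.074 in asynchronous cells, 0.325 for both pairs of non-released and 0.341 and 0.351 for the pairs of S-phase cells. Deviations from a mean of 2 libraries mirror each other, so the non-released pairs give 1 value by construction. The S-phase values are not independent either, since the 2 Nutlin libraries mirror each other. Of differently numbered pairs, Nutlin 3 with DMSO 2 gave 0.221 in asynchronous cells. In S-phase cells Nutlin 1 with DMSO 3 gave 0.270, and all other such pairs were negative. The value of 0.074 is that of DMSO asynchronous replicate 3. The numbers were taken to pair the samples only if each of 3 pairs passed 0.1, which this value missed. With the replicate block, calls among members were 1, 0 and 0 with Nutlin in the 3 states, 4 and 4 in non-released against asynchronous cells with Nutlin and DMSO, 5 and 5 in S-phase against asynchronous cells, and 5 and 6 in S-phase against non-released cells. The calls gained with the block included H1FX in S-phase against non-released cells, at 0.89 with Nutlin (limma adjusted p = 0.015) and 0.80 with DMSO (adjusted p = 0.0084), and in S-phase against asynchronous cells with Nutlin at 0.49 (adjusted p = 0.038). HIST1H1A was gained in non-released against asynchronous cells with Nutlin, at -0.56 (adjusted p = 0.037). Scaling by total reads in voom put the median of all genes at 0.14 in non-released against asynchronous DMSO cells, against -0.009 on the deposited values. It left the directions of the called members as they were. Genes called with Nutlin over the whole table ran from 170 to 888 in asynchronous (351 with all libraries), 22 to 637 in non-released (131) and 88 to 563 in S-phase cells (286). Depth limits HIST1H1T, at 2 to 36 reads, and HIST1H1B and HIST1H1D.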
